A study of Mus musculus with 2 samples.

Results

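Hemoglobin genes, with 2 genes that developing red blood cells use alongside them, were examined in RNA-seq profiles of mouse embryonic cortex. They were chosen by name: the alpha-type globins Hba-a1, Hba-a2 and Hba-x, the beta-type globins Hbb-bs, Hbb-bt, Hbb-bh1 and Hbb-y, the heme enzyme gene Alas2 and the anion exchanger gene Slc4a1. Of these 9 genes, 8 had a row among the 15643 genes listed in the count table, and Hbb-bh1 had none and was not analysed. The series compared an Rbm3 knockdown plasmid with a control plasmid in embryos of CD-1 background. Plasmids entered the cortex by electroporation at embryonic day 13, the mothers were cooled on day 14, and GFP-positive cells were sorted on day 15 as neural stem cells. Both groups were cooled, so no uncooled group enters the comparison. Each group had 1 library, the number of embryos behind it is not in the labels, and no spread between replicates can be given. The library labelled knockdown held 16823612 reads over listed genes and the control library 17757555. Rbm3, the targeted gene, had 2397 reads in the library labelled knockdown and 3242 in the control library, 84.1% of the control level (95% counting interval 79.8% to 88.7%).

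Hemoglobin, the oxygen carrier of red blood cells, is built from alpha-type and beta-type chains, each holding a heme group. In the mouse the genes of each type lie in a cluster and are used in a developmental order. Primitive red cells from the yolk sac use the embryonic genes Hba-x (zeta chain), Hbb-y (epsilon) and Hbb-bh1. Definitive red cells, made first in the fetal liver, use the adult genes Hba-a1, Hba-a2, Hbb-bs and Hbb-bt. Both kinds of cell circulate in the midgestation embryo, and blood there carries both sets of transcripts.

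All 8 listed genes had fewer reads in the library labelled knockdown, and for the globins the difference was close to the same size from gene to gene, with Hbb-bt apart. Summed over the 6 listed globins, it had 1006 reads (62.1 CPM, reads scaled to a common library size with TMM factors) and the control library 5290 (287 CPM). These were 0.00598% and 0.0298% of reads. The sum was 4.62-fold lower (95% counting interval 4.32 to 4.95), a log2 ratio of -2.21. In bulk RNA, fewer cells of a type and less of its RNA per cell cannot be told apart. Without Hbb-bt it was 4.24-fold lower (3.96 to 4.54). Counting intervals cover counting error only, and reads copied by PCR are not independent molecules.

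**Figure D1:**
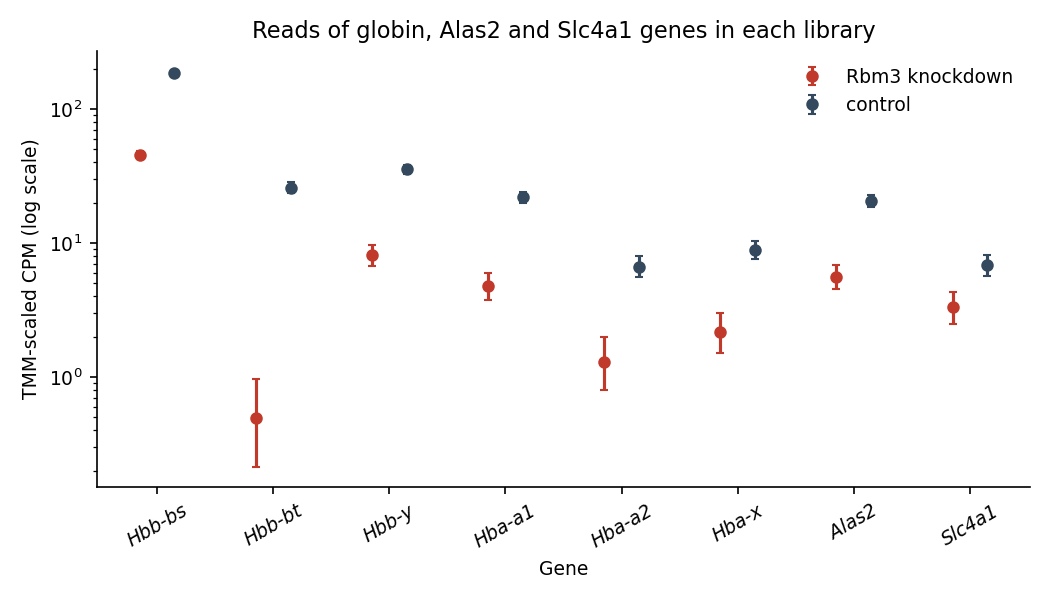
TMM-scaled CPM (log scale) of each gene in the Rbm3 knockdown and control libraries, with exact 95% Poisson intervals for counting error as bars. Each gene lies lower in the knockdown library, and Hbb-bt, at 0.494 against 25.9 CPM, has the widest gap.

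Genes averaging 5 CPM or more across the libraries were taken as measured. Of 12140 such genes, 4.51% were at least 2-fold lower in the library labelled knockdown and 2.13% at least 2-fold higher. That rule of size used CPM with a pseudocount of 0.5, which shrinks ratios of genes with few reads. On it, 6 of the 7 measured genes of the set were lower, 0 were higher and 1, Slc4a1, lay between, with a median log2 ratio of -2.04 beside 0.03 over all measured genes. Hba-a1, Hba-x, Hbb-bt and Slc4a1 were under 5 CPM in the library labelled knockdown, so they counted as measured only through the control library. For Hba-a1, Hba-x and Hbb-bt, the call of lower is thus not independent of that minimum. Hba-a2, at a mean of 3.98 CPM, was not measured. Counted from the lowest log2 ratio among the measured genes, Hbb-bt was 10th, Hba-a1 98th, Hbb-y 101st, Hbb-bs 107th, Hba-x 130th, Alas2 140th and Slc4a1 635th. A second rule was applied to the authors' deposited table: a p-value below 0.05 with a log2 fold change below -1. By it 7 of the 8 genes were lower, all but Slc4a1, beside 6.05% of listed genes. The test behind those p-values is not stated, and with 1 library per group they rest on no measured spread between replicates. In the authors' deposited table Hbb-bt had an adjusted p-value of 1.17e-07, and the other 5 globins had adjusted p-values between 0.0760 and 0.149.

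**Figure D2:**
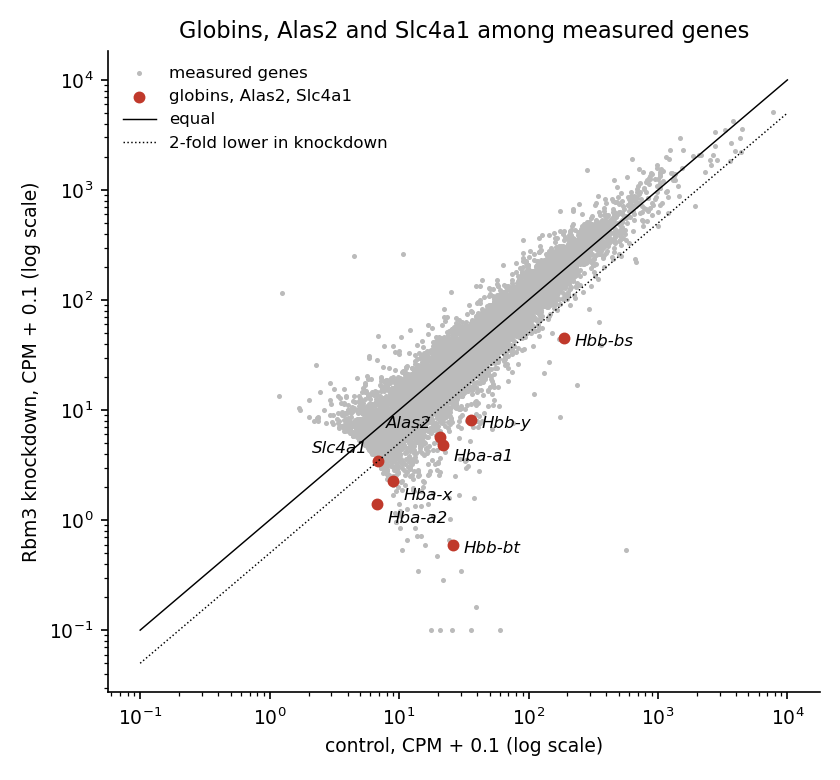
CPM of each measured gene in the control library (x axis) and the Rbm3 knockdown library (y axis), both with 0.1 CPM added and on log scales; red points are the 8 listed genes of the set, Hba-a2 included. The globins and Alas2 lie below the dotted line that marks a 2-fold lower value in the knockdown library, Hbb-bt farthest from it, and Slc4a1 lies beside it.

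The adult beta-globin genes encode the beta chain of definitive red cells. Hbb-bs (ENSMUSG00000052305, chromosome 7, 103826534 to 103828096, minus strand, GRCm38, GENCODE M21) had 734 reads in the library labelled knockdown, against 3463 in the control library. These were 45.3 and 188 CPM, so Hbb-bs was 4.15-fold lower (3.83 to 4.50). It was the most abundant globin in both libraries, at 50.5 RPKM (reads scaled to gene length and library depth, from the deposited table) in the library labelled knockdown and 226 RPKM in the control library. By RPKM it ranked 1074th of the listed genes in the library labelled knockdown and 112th in the control library. Hbb-bt (ENSMUSG00000073940, chromosome 7, 103812524 to 103813996, minus strand), its neighbour, had 8 reads in the library labelled knockdown and 478 in the control library, or 0.494 and 25.9 CPM. Hbb-bt was 52.5-fold lower (26.4 to 122), and its interval overlapped that of no other gene of the set. Within the adult beta pair, Hbb-bt took 1.08% of reads in the library labelled knockdown (exact 95% binomial interval 0.467% to 2.11%) and 12.1% in the control library (11.1% to 13.2%). Adding the pair together gave 742 and 3941 reads, a 4.67-fold lower sum (4.31 to 5.05).

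The adult beta genes are near copies, and how reads were shared between them depends on the bases where they differ. Of 444 coding bases, stop codon included, Hbb-bs and Hbb-bt differ at 1, coding base 417. Hbb-y differs from Hbb-bs at 114 coding bases. The last 60 coding bases (385 to 444, GENCODE M21, GRCm38) are shown because they hold that single difference. Capitals in the adult genes mark the base that differs between them, and capitals in Hbb-y mark bases that differ from Hbb-bs.
Hbb-bs: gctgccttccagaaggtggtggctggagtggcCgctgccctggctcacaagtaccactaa
Hbb-bt: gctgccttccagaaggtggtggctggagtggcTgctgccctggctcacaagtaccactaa
Hbb-y: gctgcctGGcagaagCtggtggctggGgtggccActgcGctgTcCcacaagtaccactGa

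Of the 50-base windows along the Hbb-bs transcript, 34.2% occur in no other gene's GENCODE M21 transcripts, and for Hbb-bt 41.7%. All shared windows of each are shared with the other. The deposited counts of both genes therefore rest on how the authors' counting treated reads that match both copies, which is not given in the sources used here. These gene names are those of the haplotype in the reference genome, and the beta-globin haplotype of the CD-1 embryos is not in the labels. The sum of both genes does not depend on how counted reads were split between them, but any reads left out as ambiguous are missing from it.

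Hbb-y (ENSMUSG00000052187, chromosome 7, 103851749 to 103853216, minus strand), the embryonic epsilon-type gene, shares no 50-base window with another gene. It had 131 reads (8.09 CPM) in the library labelled knockdown and 657 (35.6 CPM) in the control library. It was 4.41-fold lower (3.65 to 5.36), so the embryonic and the main adult beta gene had overlapping intervals. Per length, Hbb-bs stood above Hbb-y by 4.29-fold in the library labelled knockdown and by 4.04-fold in the control library.

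The alpha-type genes had intervals that overlapped those of Hbb-bs and Hbb-y. Hba-a1 (ENSMUSG00000069919, chromosome 11, 32283511 to 32284465, plus strand), an adult alpha-globin gene, had 77 reads (4.75 CPM) in the library labelled knockdown, against 404 (21.9 CPM) in the control library. It was 4.61-fold lower (3.61 to 5.96). Hba-a2 (ENSMUSG00000069917, chromosome 11, 32296489 to 32297298, plus strand), the other adult copy, had 21 reads (1.30 CPM) in the library labelled knockdown and 123 (6.67 CPM) in the control library, 5.15-fold lower (3.22 to 8.61). The adult alpha copies differ at 1 of 429 coding bases, and 32.5% of the 50-base windows of Hba-a1 and 13.1% of those of Hba-a2 are unique to the gene. Their deposited counts, like those of the adult beta pair, rest on how reads matching both copies were treated. In contrast to the adult beta pair, the split within this pair was close in both libraries: Hba-a2 took 21.4% (13.8% to 30.9%) in the library labelled knockdown and 23.3% (19.8% to 27.2%) in the control library. Hba-x (ENSMUSG00000055609, chromosome 11, 32276400 to 32278116, plus strand), the embryonic zeta gene, shares no 50-base window with another gene. It had 35 reads (2.16 CPM) in the library labelled knockdown and 165 (8.95 CPM) in the control library, 4.14-fold lower (2.86 to 6.15).

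**Figure D3:**
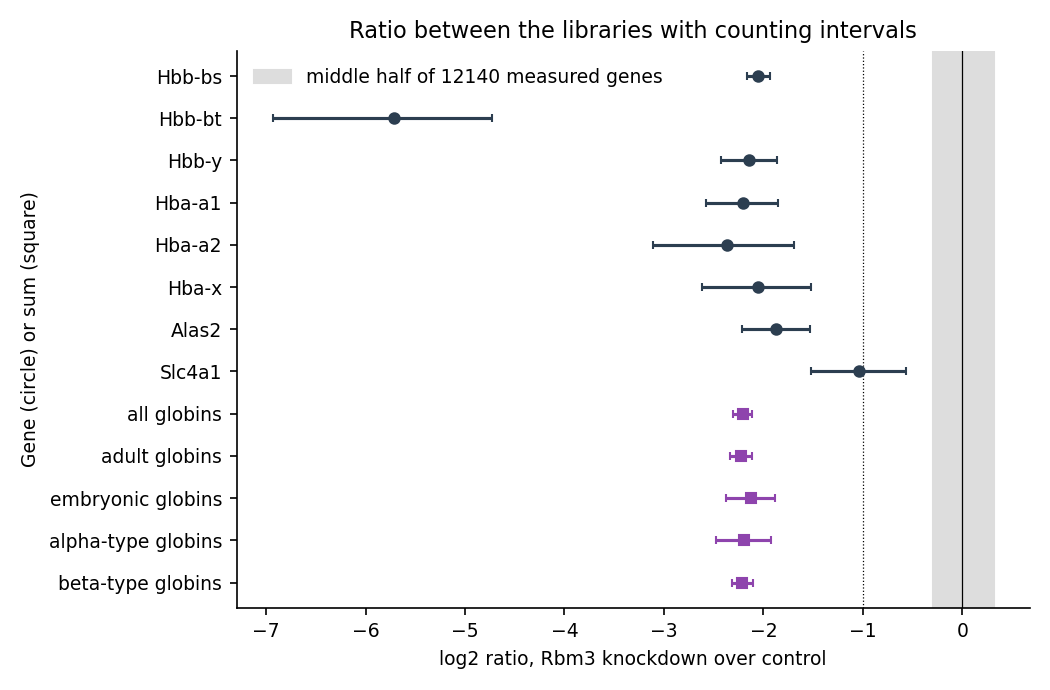
Log2 ratio of the Rbm3 knockdown over the control library for each gene (circles) and for sums of globin reads (squares), with 95% counting intervals; the grey band spans the interquartile range of measured genes and the dotted line marks a 2-fold lower value. The sums of adult, embryonic, alpha-type and beta-type globins lie between -2.22 and -2.12, Hbb-bt lies at -5.71 and Slc4a1 at -1.04.

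Embryonic and adult globins stood in nearly the same proportions in both libraries. The embryonic genes Hba-x and Hbb-y summed to 166 reads in the library labelled knockdown and 822 in the control library, 4.35-fold lower (3.68 to 5.17). The 4 adult genes summed to 840 and 4468 reads, 4.67-fold lower (4.34 to 5.04). Embryonic genes thus made up 16.5% of counted globin reads (14.3% to 18.9%) in the library labelled knockdown and 15.5% (14.6% to 16.5%) in the control library. Leaving out Hbb-bt gave 16.6% in the library labelled knockdown and 17.1% in the control library. Within the alpha type the embryonic share was 26.3% (19.1% to 34.7%) in the library labelled knockdown and 23.8% (20.7% to 27.2%) in the control library. Within the beta type it was 15.01% (12.7% to 17.5%) in the library labelled knockdown and 14.3% (13.3% to 15.3%) in the control library. All of these intervals overlapped between the libraries. They cover counting error only, and with 1 library per group a difference in the embryonic share was not tested.

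The balance of chain types was also close. Alpha-type genes took 13.2% of globin reads (11.2% to 15.5%) in the library labelled knockdown and 13.1% (12.2% to 14.02%) in the control library. Per length, summed beta-type RPKM stood above summed alpha-type RPKM by 6.48-fold in the library labelled knockdown and by 6.63-fold in the control library. These are ratios of reads per length, not of protein chains. Any reads left out as ambiguous are missing from the adult genes but not from Hba-x or Hbb-y. Values that set genes against each other within a library therefore depend on that handling, which is not known. These are the chain balance, the embryonic shares, Hbb-bs over Hbb-y, the order by RPKM and globins over Alas2.

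**Figure D4:**
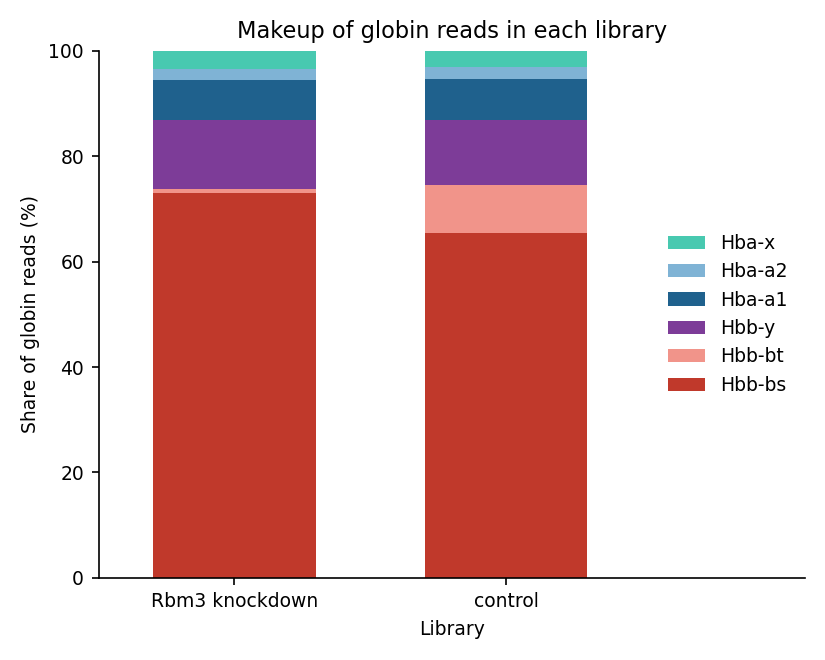
Share of each listed globin gene among all globin reads (percent) in the Rbm3 knockdown library (left) and the control library (right). The bands of Hba-x, Hba-a2, Hba-a1 and Hbb-y are alike in both bars, Hbb-bt takes 0.795% against 9.04%, and Hbb-bs takes 73.0% against 65.5%.

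Ordered by RPKM, the library labelled knockdown ran Hbb-bs, Hbb-y, Hba-a1, Alas2, Hba-x, Hba-a2, Hbb-bt and Slc4a1. The control library ran Hbb-bs, Hbb-y, Hbb-bt, Hba-a1, Hba-a2, Hba-x, Alas2 and Slc4a1. Hbb-bt thus held the seventh place in the library labelled knockdown, against the third in the control library. In the library labelled knockdown, neighbours whose counting intervals overlapped were Alas2 with Hba-x, Hba-x with Hba-a2, Hba-a2 with Hbb-bt, and Hbb-bt with Slc4a1. In the control library they were Hba-a2 with Hba-x and Hba-x with Alas2.

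Alas2 (ENSMUSG00000025270, chromosome X, 150547375 to 150570638, plus strand) encodes the red cell form of the enzyme that starts heme synthesis. It had 91 reads (5.62 CPM) in the library labelled knockdown and 378 (20.5 CPM) in the control library, 3.65-fold lower (2.90 to 4.64). That interval overlapped those of the globins other than Hbb-bt. Summed globin RPKM stood above Alas2 RPKM by 32.3-fold in the library labelled knockdown and by 41.6-fold in the control library.

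Slc4a1 (ENSMUSG00000006574, chromosome 11, 102348824 to 102366203, minus strand) encodes band 3, the chloride and bicarbonate exchanger of the red cell membrane. It had 54 reads (3.33 CPM) in the library labelled knockdown and 126 (6.83 CPM) in the control library. It was 2.05-fold lower (1.48 to 2.88), a smaller difference than that of Hbb-bs, whose interval did not overlap it. Its log2 ratio was -1.04 without a pseudocount and -0.94 with it, on either side of the 2-fold line. In the authors' deposited table its p-value was 0.150.

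The upstream sequences of the globin genes are shown as background on the genes. The adult beta genes, alike in their coding bases, differ in these sequences. Any part of the upstream sequences in the differences between the libraries was not tested. The 120 bases before each RefSeq start (GRCm38.p6) were taken for 7 of the 9 genes. Hbb-bh1 and Slc4a1 were not among them. RefSeq and GENCODE place the starts differently. The windows of Hbb-bs, Hba-a1 and Hba-x lie inside the GENCODE gene spans given above, and the others overlap those spans in part. Capitals mark CACCC or CCAAT on either strand, the GATA words on either strand, and TATAA or its variant ATAAAA on the sense strand. The GATA words searched were AGATAA or the like-starting AGATAG, along with TGATAA or the like-starting TGATAG. These letters are the classical elements of globin promoters, bound by KLF factors (CACCC), NF-Y (CCAAT), GATA factors and TBP (TATA). They were chosen with the sequences in view.
Hbb-bs (chr7:103827929-103828048, minus strand): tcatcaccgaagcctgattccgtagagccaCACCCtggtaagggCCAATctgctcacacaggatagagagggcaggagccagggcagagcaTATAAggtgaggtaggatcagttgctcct
Hbb-bt (chr7:103813924-103814043, minus strand): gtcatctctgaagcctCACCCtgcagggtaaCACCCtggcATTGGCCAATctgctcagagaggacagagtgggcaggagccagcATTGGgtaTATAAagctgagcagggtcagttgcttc
Hbb-y (chr7:103853208-103853327, minus strand): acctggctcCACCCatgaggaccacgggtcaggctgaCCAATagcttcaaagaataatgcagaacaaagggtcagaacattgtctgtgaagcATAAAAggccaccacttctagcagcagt
Hba-a1 (chr11:32283552-32283671, plus strand): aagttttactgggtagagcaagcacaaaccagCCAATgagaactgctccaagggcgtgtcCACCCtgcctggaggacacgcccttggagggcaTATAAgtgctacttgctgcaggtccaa
Hba-x (chr11:32276480-32276599, plus strand): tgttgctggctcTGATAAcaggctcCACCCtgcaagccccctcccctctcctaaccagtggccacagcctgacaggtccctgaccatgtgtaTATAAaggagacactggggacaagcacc
Alas2 (chrX:150547297-150547416, plus strand): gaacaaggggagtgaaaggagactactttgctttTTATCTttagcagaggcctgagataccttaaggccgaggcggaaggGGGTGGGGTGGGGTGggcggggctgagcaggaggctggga

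CACCC was found in all 7 of these windows, against 31.7% of 32851 RefSeq windows of the same length, and TATAA or ATAAAA in 6, against 11.5%. CCAAT was found in 5, not in Hba-x or Alas2, against 21.3%. A GATA word was found in Hba-x and Alas2, against 12.8%. The CACCC word, the CCAAT word and a TATA word were found together in 5 of the 7, against 0.642%. Over the 120 bases, Hbb-bs and Hbb-bt matched at 73.9% of aligned bases. Hbb-bs held 1 CACCC and 1 CCAAT, and Hbb-bt held 2 and 3. The adult alpha genes shared a run of 297 bases of the 300-base RefSeq window, so Hba-a2 is not shown. These near copies count separately among the 7 and among the 5, and the words were chosen with the sequences in view. The shares over all RefSeq windows are thus a description and not a test. A match is a description of letters, and a missing match says nothing of whether a factor was bound.

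Few genes of the rest of the red cell programme were past 2-fold. Over 5 lists covering heme synthesis, iron handling, erythroid transcription factors, membrane and skeleton, and erythroid enzymes, 4 of 43 measured genes were at least 2-fold lower, 0 were higher, and the median log2 ratio was -0.19, beside 4.51% lower and a median of 0.03 over all measured genes. Neural cells also express many of them. Aqp1 and Car2, among the 4 that were lower, met the 5 CPM minimum only through the control library. Log2 ratios of listed genes and list medians below include the pseudocount of 0.5 CPM.

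Heme synthesis genes other than Alas2 showed no 2-fold difference in 14 of 14 measured, with a median of -0.07. Alad and Ppox, the most abundant, had log2 ratios of -0.40 and -0.21. Slc25a37 (mitoferrin), which brings iron into mitochondria for heme, was lowest at -0.87, and Fech, the enzyme that inserts iron into heme, was at -0.41. Alas1, the form of the first enzyme that most tissues use, had 40.7 CPM in the library labelled knockdown and 35.1 CPM in the control library, a log2 ratio of 0.21; it was named after its value was seen.

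Iron genes also had 0 of 9 measured past 2-fold, with a median of -0.19. Tfrc, the transferrin receptor, was at 0.56 and Ireb2, an iron-sensing RNA-binding protein, at 0.53. Fth1, the ferritin heavy chain, was at -0.61 and Slc40a1, the iron exporter ferroportin, at -0.88.

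Of the erythroid transcription factors, 1 of 6 measured was past 2-fold. Lmo2, a bridging factor of the erythroid GATA complex that endothelial cells also express, was at -1.34, and its partner Tal1 was at -0.94. Ldb1 and Mafg, the most abundant, were at 0.27 and 0.05, and Mafk was at 0.42. Gata1, Klf1, Nfe2 and Gfi1b had no row in the table and were not analysed. The list of globin switching factors, among them repressors that silence embryonic globins in red cells, had 0 of 15 past 2-fold and a median of 0.27. Bcl11a, a silencer of embryonic globins that cortical neurons also express, was at 0.61, Nr2c2 at 0.59 and the remodeller Chd4 at 0.53. Lin28b, which favours the fetal type of red cell, was at -0.995, just short of the 2-fold line.

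Among red cell membrane and skeleton genes, 2 of the 8 measured were past 2-fold lower, and the list median was -0.87. Aqp1, a water channel of red cells and also of choroid plexus, was at -3.13 and Dmtn, which binds actin in the membrane skeleton, at -1.19. Mpp1 was at -0.96, and Add2, an adducin that neurons also express, was at 0.63. Among erythroid enzymes, 1 of 6 measured was lower, and the median was -0.34. Car2, a carbonic anhydrase, was at -1.80 and Bpgm, which makes the hemoglobin regulator bisphosphoglycerate, at -0.68. The peroxiredoxin gene Prdx2, the most abundant, was at -0.39, and Xpo7 was at 0.54.

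Most defining red cell markers were scarce in both libraries. Of 11 markers, 6 had a row and 3 were measured, and the 5 without a row were Klf1, Gata1, Ahsp, Rhag and Epb42. The 6 with a row, none at 0 reads, summed to 106 CPM in the library labelled knockdown and 96.9 CPM in the control library, of which Tfrc, used by most dividing cells, made up 94.9 and 64.4 CPM. Epor, the erythropoietin receptor, had 21 reads in the library labelled knockdown and 40 in the control library, a ratio of 0.597 (0.335 to 1.04). The 3 measured were Tfrc, Alas2 and Slc4a1.

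Several marker lists of other cell types were lower as well, where 4.51% of all measured genes were at least 2-fold lower. Endothelial markers, all 11 measured, included 8 past 2-fold lower (list median -1.67). Their summed level was 162 CPM in the library labelled knockdown against 413 CPM in the control library. Cldn5, a tight junction gene of brain vessels, was at -1.16 and the VEGF receptor Kdr at -1.01. For mural cells, which wrap small vessels, 3 of the 8 were past 2-fold lower and the list median was -0.75 (112 CPM in the library labelled knockdown, 207 CPM in the control library). Rgs5 was at -0.54 and Pdgfrb at -0.72. All 6 measured meningeal genes were past 2-fold lower (list median -4.28), at 34.1 CPM in the library labelled knockdown and 412 CPM in the control library. So were all 4 measured choroid plexus genes (list median -4.05), at 2.90 and 619 CPM, mostly Ttr. The collagen genes Col1a1 and Col1a2 were at -2.58 and -4.28, Ttr at -9.25 and Clic6 at -4.53. In the macrophage list 2 of the 7 measured were past 2-fold lower and the list median was 0.09 (121 CPM in the library labelled knockdown, 153 CPM in the control library). Csf1r was at 0.19 and Mrc1 at -2.29, and Lyve1 was the list's gene at 0 reads in the library labelled knockdown, against 378 in the control library. All 4 measured choroid plexus genes were under 5 CPM in the library labelled knockdown and met the minimum only through the control library. So did Dcn, Lum, Slc6a13 and Foxc1 (meningeal), Tek, Egfl7 and Ramp2 (endothelial), Acta2 and Tagln (mural) and Lyve1 (macrophage). Their calls of lower are thus not independent of the minimum. Summed globins, at a log2 ratio of -2.21 without a pseudocount, lay between the endothelial and the meningeal medians. The part of these cells in the globin difference was not tested.

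**Figure D5:**
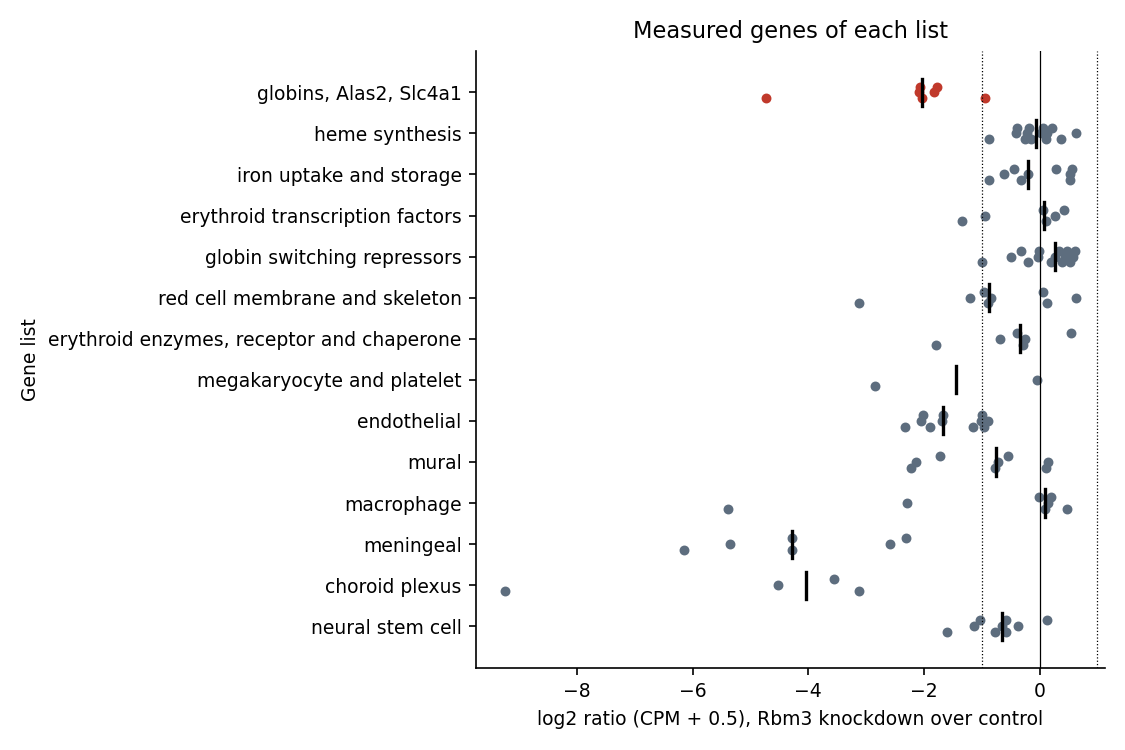
Log2 ratio of CPM with 0.5 added, Rbm3 knockdown over control, for each measured gene (points) of each list, with the list median as a bar and dotted lines at 2-fold. The globin set has a median of -2.04, beside -0.07 for heme synthesis, -1.67 for endothelial and -4.28 for meningeal genes.

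Markers of the labelled cell type were abundant in both libraries. All 9 neural stem cell markers were measured, with summed levels of 1162 CPM in the library labelled knockdown and 2104 CPM in the control library. Of them, 3 were at least 2-fold lower, 0 were higher and 6 lay between (median -0.65). Over all measured genes, 4.51% were at least 2-fold lower and the median was 0.03. Vim was at -0.58 and Fabp7 at -1.61.

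The 5 measured genes whose log2 ratio, with the pseudocount, lay nearest to that of the summed globins, without it, were Heph (-2.21), Sulf1 (-2.22), Vtn (-2.22), Flnc (-2.19) and Tgm2 (-2.23). This likeness is over 2 libraries only, so it is a match of a single ratio. Heph and Tgm2, at 1.97 and 3.39 CPM in the library labelled knockdown, met the 5 CPM minimum only through the control library.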

How the data were processed

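Per the labels, RNA from sorted GFP-positive cells (100 ng per library) was enriched for mRNA and sequenced, with 1 library per group. The submitters' processing notes name TopHat2 2.0.12, Bowtie 1.0.1 and HTSeq 0.6.0 without roles. The sources used here do not give the genome build, annotation, strand setting or handling of multiply mapped reads. The authors' table holds raw read counts, RPKM, a log2 fold change and average log2 CPM, and p-values with adjusted p-values, per the file headers. Listed genes had at least 18 reads over both libraries, so totals are over listed genes.

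From the deposited counts, CPM were computed with TMM factors (edgeR 4.0.16), 0.963 for the knockdown and 1.04 for the control library. Ratios of single genes and sums carry exact (Clopper-Pearson) 95% intervals for the split of reads between libraries, and levels carry exact Poisson intervals. Calls over all genes used a pseudocount of 0.5 CPM, a mean of at least 5 CPM and a log2 ratio of at least 1 in size. No test between groups was made, since each had 1 library. Alternatives were other scalings (DESeq2 1.42.0 for median-of-ratios), pseudocounts and minimums. Positions and transcripts are from GENCODE M21, on the first-named transcript of each gene. The interval and ratio calculation was tested on simulated data.

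Genes and lists were chosen with earlier results of these data known. Named from each list were up to 3 genes of the largest absolute log2 ratio and the 2 most abundant, and from lists of other cells the 2 most abundant; Alas1, Epor, Lyve1, S100a8, S100a9, Mpo and Ngb are named besides, with their values already known. Some genes that the rule or the lists take are not reported here.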

Additional observations from a re-analysis of the deposited data

How the results depend on the processing

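No paired analysis was possible because each group had 1 library. No library could be left out for the same reason. The direction of each listed globin, of Alas2 and of Slc4a1 held under every scaling, every pseudocount and the authors' values, with the narrowest span of log2 ratios in Hbb-bs (-2.16 to -2.03). The widest was in Hbb-bt (-5.82 with library totals and no pseudocount to -4.17 with a pseudocount of 1 CPM). Scaling by library totals shifted the median over measured genes by -0.11, and without a pseudocount the log2 ratio of the globin sum was -2.32 and that of the adult sum -2.33. That of the globin sum without Hbb-bt, under the TMM scaling, was -2.08. The embryonic share by RPKM was 19.2% in the library labelled knockdown and 17.9% in the control library. In the control library it was 17.1% without Hbb-bt and 14.3% among beta-type genes.

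Counts over all genes moved with the minimum: 506 higher and 1384 lower with none, 429 and 1176 at 1 CPM, and 143 and 153 at 20 CPM, against 259 and 547. With library totals they were 187 and 693, with 7 of 7 measured genes of the set lower. At 20 CPM, 2 genes of the set were measured, both lower, and Hbb-y met that minimum only through the control library.

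List medians, with the pseudocount of 0.5 CPM, under a minimum of 20 CPM were 0.0200 (heme synthesis) and 0.28 (iron), both turned in sign, 0.27 (erythroid transcription factors), 0.34 (switching factors), -0.36 (red cell membrane), -1.08 (endothelial), -3.43 (meningeal) and -9.25 (choroid plexus, Ttr alone). With library totals the erythroid factor median was -0.025 and the macrophage median -0.011, both turned in sign, and the erythroid enzyme median was -0.44. With median-of-ratios scaling the meningeal and choroid plexus medians were -4.27 and -4.03, and at a minimum of 1 CPM -4.28 and -3.56. The causes were not tested. Depth limits Hba-a2, Hba-x and Hbb-bt most, with 21, 35 and 8 reads in the library labelled knockdown.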

Other observations

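Other blood cell genes did not share one direction. Pf4, a platelet chemokine gene that macrophages at brain borders also express, had 14 reads in the library labelled knockdown and 172 in the control library, 10.8-fold lower (6.26 to 20.2). Gp1bb, a platelet receptor subunit, had a log2 ratio of -0.04. Ptprc, which encodes the leukocyte antigen CD45, had 135 reads in the library labelled knockdown and 42 in the control library, 3.66-fold higher (2.57 to 5.30). Pf4 met the 5 CPM minimum only through the control library, and Ptprc only through the library labelled knockdown. The directions of both are thus not independent of that minimum. The myeloid genes S100a9 and Mpo, both under the CPM minimum and named after their values were seen, had 44 and 60 reads in the library labelled knockdown and 6 and 10 in the control library. S100a8, also under the minimum, had 33 and 12 reads.

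Among globins outside the hemoglobin clusters, Cygb (cytoglobin), found in fibroblast-like and neural cells, had 16.3 CPM in the library labelled knockdown and 18.8 CPM in the control library, a log2 ratio of -0.20. Ngb (neuroglobin), the neuronal globin, had 3 and 22 reads, a ratio of 0.155 (0.0297 to 0.517).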
